A study of Mus with 4 samples.

Results

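The enzymes and helper proteins that hydroxylate, fold and trim procollagen were examined in a murine podocyte cell line that did or did not overexpress OASIS, an endoplasmic reticulum (ER) stress transducer encoded by Creb3l1. The members were the array rows whose gene symbol was P4ha1, P4ha2, P4ha3, P4hb, Plod1, Plod2, Plod3, Serpinh1, Bmp1 or Pcolce. All 10 genes were on the array, out of 26893 named genes, and they were read by 21 of its 56605 probes. After a filter on dim signals, 18 of the 21 probes and 9 of the 10 genes could be tested, and P4ha3 could not.

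Fibrillar collagen is made in the ER as procollagen chains that wind into a triple helix. Prolyl 4-hydroxylase, built of an alpha subunit (P4ha1, P4ha2 or P4ha3) and the disulphide isomerase P4hb, hydroxylates prolines and so makes the helix stable at body temperature, whereas the lysyl hydroxylases Plod1, Plod2 and Plod3 modify lysines that later carry sugars and cross-links. Serpinh1, also called Hsp47, is a collagen-specific chaperone of the ER. Outside the cell, the metalloproteinase Bmp1 removes the C-terminal propeptide, and Pcolce enhances that cleavage. In the kidney, podocytes line the outside of the glomerular capillary and contribute collagen to its basement membrane.

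The immortalized line had been differentiated for 10 to 14 days at 37 °C without interferon-γ. The Venus group, which served as the control, received a lentivirus for the fluorescent protein Venus, and the OASIS group received one for OASIS in its N-terminal and active form. Both groups thus carried a lentivirus. Infection lasted 24 h, in medium that held 10% FBS and 8 μg/mL polybrene, and the multiplicity of infection was 200 to 500. Total RNA was taken 48 h after the vectors were added. Each group had 2 samples, each on its own 1-colour Agilent array. The inserts were carried in pCSII-EF in transduced cells, so that the dose of OASIS per cell was not set by its own gene. Neither the labels nor the methods say whether the samples of a group were separate cultures, and the p-values therefore measure only the spread between these samples.

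Of 59305 spots that are not controls, between 33938 and 34418 were well above background on the arrays, and 0 were saturated. The single Creb3l1 probe gave a difference of -0.17 between OASIS and Venus (standard error 0.10, limma adjusted p = 0.298), and whether it overlaps the inserted N-terminal part is unknown here, so it does not check the labels. Of the podocyte markers, 7 of 10 were tested and 2 were higher past both limits described below. Over all genes tested, 6.21% were higher past both limits, a share that applies to each marker list here. The 2 markers were Wt1 and Cd2ap, each of which also has a probe that was not past both limits. Ptpro was well above background on no array, and Nphs1 was on at most 1. The summed level of the podocyte markers, in linear intensity with the 75th percentile of an array set to 1, ran from 60.0 to 62.8 with Venus and from 57.8 to 63.1 with OASIS. Of the fibroblast and mesangial markers, 5 of 8 were tested and 1 was higher, Pdgfra. Its brightest tested probe was above background only with OASIS and could be tested only for that reason. That probe was at least 7.96-fold higher, and another Pdgfra probe had a fitted log2 fold change of 1.46 (limma adjusted p = 0.0125). No Pdgfra probe was well above background on more than 2 arrays. Acta2, Pdgfrb, Dcn and Postn were well above background on all 4 arrays and did not pass by their brightest probe. Lum and Thy1 were on no array above background. The summed level ran from 73.4 to 74.7 with Venus and from 60.8 to 62.6 with OASIS. Most of that sum is Acta2, which gave -0.27 (limma adjusted p = 0.111), and another of its probes gave -0.32 (limma adjusted p = 0.0867). Of 6 tubule markers, 3 were tested, 1 was higher (Lrp2, by 2 of its 5 tested probes) and Umod and Cdh1 were on no array above background, with a summed level of 32.2 to 41.9 with Venus and 33.3 to 50.9 with OASIS. Of 5 endothelial markers 4 were on no array above background, and of 5 leukocyte markers 3 were tested and 0 passed. In bulk RNA, more cells that use a gene and more of its RNA per cell cannot be told apart.

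All values of a probe are log2 intensities relative to the 75th percentile of the array, and differences are OASIS minus Venus. Apart from the summed levels of the marker lists, levels of different probes were not set against each other, since probes differ in how brightly they bind. Those sums therefore weigh most the probes that bind most brightly. A probe or gene is said to have risen or fallen when the limma test gave an adjusted p under 0.1 over all 31598 probes tested, and to be past both limits when it also changed more than 2-fold. A gene is represented by its brightest tested probe.

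The prolyl 4-hydroxylase subunits P4ha1, P4ha2 and P4hb, the lysyl hydroxylase Plod1 and the chaperone Serpinh1 were higher in the OASIS-overexpressing podocytes, and the other lysyl hydroxylases, the trimming enzyme Bmp1 and its enhancer Pcolce showed no rise that passed the test. At the adjusted p, 5 of the 9 genes tested rose, P4ha1, P4ha2, P4hb, Plod1 and Serpinh1, each by every probe that was well above background on all 4 arrays, and 0 fell by their brightest probe. Over all 16318 genes tested, 18.6% rose and 18.1% fell by this rule. Past both limits there were 3 genes that were higher, P4ha1, P4ha2 and Plod1, and 0 that were lower, against 6.21% and 1.85% of all genes. By probe, 9 of the 18 rose and 1 fell at the adjusted p, against 17% and 19.7% of all probes, and 5 were higher and 0 lower past both limits, against 5.89% and 2.47%. These counts include a Plod1 probe that entered the test only through the OASIS arrays. Over the 17 probes that were well above background on all 4 arrays, 8 rose at the adjusted p and 4 were higher past both limits, against 16.8% and 4.56% of all such probes. Over all 18 probes, the Plod1 probe included, the count of 5 past both limits was 4 with quantile normalization, scaling to the median or the authors' scaled values, 3 with no filter on dim probes (all 21 probes tested), 2 with the methods' t-test and 1, P4ha2, with normexp background correction, and 4 probes passed the adjusted p with the methods' t-test. The methods name this Student's t-test for comparisons of 2 groups in general, and do not name it for the arrays. The median log2 fold change was 0.74 over the 9 genes and -0.056 over all genes.

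**Figure D1:**
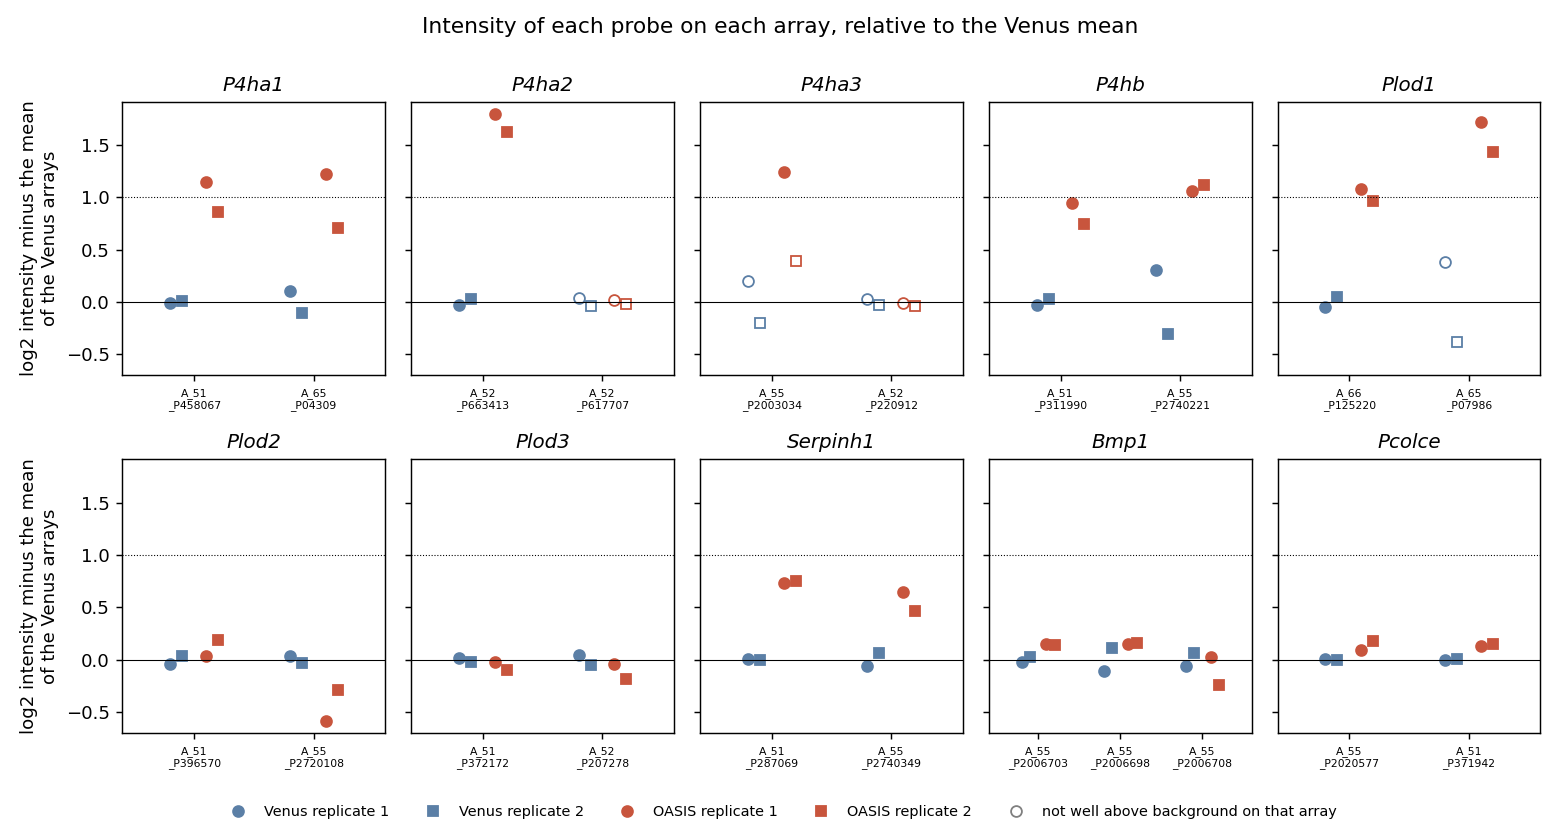
Log2 intensity of each probe of the 10 genes on each of the 4 arrays, minus the mean of the 2 Venus arrays, on one scale for all genes; open symbols mark arrays on which the probe was not well above background, and the dotted line marks a 2-fold rise. Both OASIS arrays lie above both Venus arrays for every filled probe of P4ha1, P4ha2, P4hb and Serpinh1 and for both probes of Plod1, while those of Plod3 and Bmp1 cluster near 0.

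P4ha2 had the largest rise of the 10 genes that was measured on all 4 arrays. Its probe for RefSeq transcript variant 2, A_52_P663413, on chromosome 11 (11qB1.3), stood at 1.32 and 1.37 on the Venus arrays and at 3.14 and 2.97 on the OASIS arrays. The OASIS arrays were both far above the Venus arrays, and the gap was wider than the spread within either group. The difference was 1.71 (standard error 0.11, 95% confidence interval 1.42 to 2.01, limma adjusted p = 0.00403), a 3.28-fold rise that ranked 754 among the rises of 31598 probes. A second probe, A_52_P617707, annotated to an Ensembl transcript, lay between -8.33 and -8.26 on all 4 arrays and was well above background on none, so that it gives no fold change. P4ha2 encodes the alpha subunit that forms the type II enzyme.

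P4ha1, which encodes the alpha subunit of the type I enzyme, rose by about 2-fold. Its brighter probe, A_51_P458067 for transcript variant 3, on chromosome 10 (10qB4), read 0.46 and 0.49 with Venus and 1.62 and 1.34 with OASIS. Its dimmer probe, A_65_P04309 for transcript variant 1, read -1.75 and -1.97 with Venus and -0.63 and -1.15 with OASIS. In both probes OASIS replicate 1 was the highest array, and the groups did not overlap. The log2 fold changes were 1.003 (standard error 0.13, 95% confidence interval 0.65 to 1.36, limma adjusted p = 0.0134) and 0.97 (standard error 0.21, 95% confidence interval 0.42 to 1.52, limma adjusted p = 0.0362). The first is 2.004-fold, just over the limit, and the second 1.96-fold, just under it. The brighter probe was past both limits in 9 of 16 settings. Its log2 fold change was 0.86 without OASIS replicate 1 and 0.99 without Venus replicate 1. Neither P4ha1 probe passed the adjusted p with the methods' t-test (0.121 for the brighter and 0.204 for the dimmer).

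P4ha3, the third alpha subunit, on chromosome 7 (7qE3), was not measurable in this line. Its brighter probe, A_55_P2003034, read -6.45 and -6.85 with Venus and -5.40 and -6.26 with OASIS, and it was well above background on 1 array, OASIS replicate 1. Set against the lowest signal above background on the Venus arrays, the mean of both OASIS arrays was 1.22-fold higher. That mean includes OASIS replicate 2, on which the probe was not well above background, so the value is not a lower bound. It was not tested. The other probe, A_52_P220912, lay between -8.37 and -8.30 and was above background on no array.

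P4hb encodes protein disulphide isomerase, which serves as the beta subunit of the hydroxylase and also acts on its own in oxidative folding. Its brighter probe, A_51_P311990, on chromosome 11 (11qE2), read 3.42 and 3.47 with Venus and 4.40 and 4.20 with OASIS. The dimmer one, A_55_P2740221, annotated to a cDNA record with no description, read -4.04 and -4.65 with Venus and -3.28 and -3.22 with OASIS. Both probes separated the groups, the dimmer one with more spread between the Venus arrays. The brighter probe rose by 0.85 (standard error 0.12, 95% confidence interval 0.54 to 1.16, limma adjusted p = 0.0143), which is 1.80-fold and under the 2-fold limit, and the dimmer by 1.09 (standard error 0.22, 95% confidence interval 0.50 to 1.68, limma adjusted p = 0.0328). The dimmer probe's call past both limits was lost without Venus replicate 2, at 0.79, and without OASIS replicate 2, where the log2 fold change was 1.07 with an adjusted p of 0.1002 by limma. With normexp background correction it was 0.57. Neither P4hb probe passed the adjusted p with the methods' t-test (0.112 for the brighter and 0.199 for the dimmer).

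**Figure D2:**
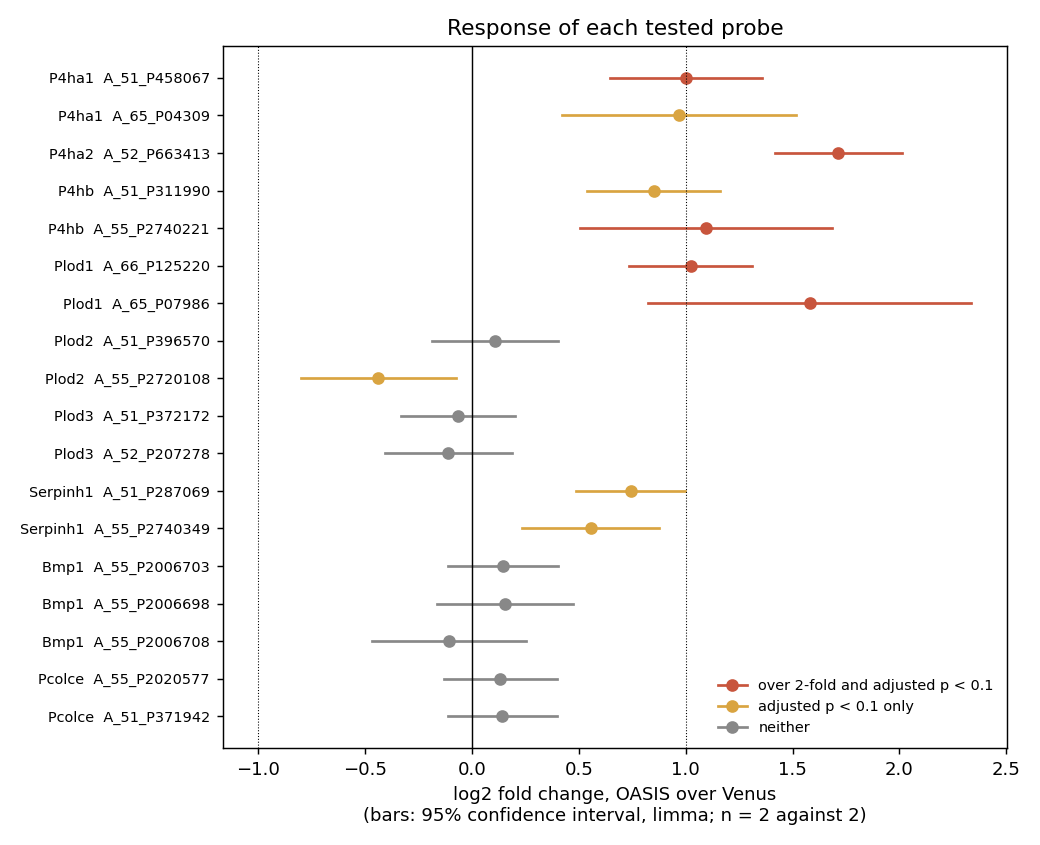
Log2 fold change of OASIS over Venus for each of the 18 tested probes with its 95% confidence interval from limma, 2 arrays per group; dotted lines mark 2-fold. The P4ha2 probe, at 1.71, has its whole interval beyond the 2-fold line, and those of P4ha1 and Plod1 lie on it or cross it.

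The lysyl hydroxylases parted from each other. Plod1, on chromosome 4 (4qE2), encodes the enzyme that acts on the helical part of the collagen chain. Its brighter probe, A_66_P125220, read -0.49 and -0.39 with Venus and 0.64 and 0.53 with OASIS, with no overlap and little spread in either group. The difference was 1.02 (standard error 0.11, 95% confidence interval 0.74 to 1.31, limma adjusted p = 0.00868), or 2.03-fold. It fell under the 2-fold limit, but still passed the adjusted p, without OASIS replicate 1 (0.97) and without Venus replicate 1 (0.97). The dimmer probe, A_65_P07986, annotated to an Ensembl transcript, read -6.39 and -7.16 with Venus, not well above background on either array, and -5.05 and -5.33 with OASIS. It was at least 1.91-fold higher with OASIS by the means of its arrays. Of the 5 probes counted past both limits, it is the 1 with a bound only, and that bound is under 2-fold. It could be tested only because it was above background with OASIS, so its fitted log2 fold change of 1.58 (limma adjusted p = 0.0252), which became 0.28 with normexp background correction, adds nothing to the rise of the brighter probe.

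Plod2, on chromosome 9 (9qE3.3), encodes the enzyme that acts on the telopeptides, the short ends that flank the helix. Its brighter probe, A_51_P396570 for transcript variant 2, read 2.19 and 2.27 with Venus and 2.26 and 2.41 with OASIS, so that the groups overlapped. Its log2 fold change was 0.11 (95% confidence interval -0.19 to 0.40, limma adjusted p = 0.516). The dimmer probe, A_55_P2720108, annotated to an Ensembl transcript, read -1.91 and -1.98 with Venus and -2.53 and -2.24 with OASIS, both OASIS arrays being lower. It was the only tested probe of the 10 genes to fall, by 0.44 (standard error 0.14, 95% confidence interval -0.80 to -0.075, limma adjusted p = 0.0832), a call lost when OASIS replicate 1 (-0.29, adjusted p = 0.170), Venus replicate 1 (-0.40, adjusted p = 0.324) or Venus replicate 2 (-0.47, adjusted p = 0.254) was left out of the limma fit.

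Plod3, on chromosome 5 (5qG2), encodes an enzyme that besides hydroxylating lysine can add galactose and glucose to the product. Its brighter probe, A_51_P372172, read 2.46 and 2.42 with Venus and 2.42 and 2.34 with OASIS, and its dimmer probe, A_52_P207278, read -0.28 and -0.37 with Venus and -0.36 and -0.51 with OASIS. In both, the OASIS arrays lay within or just below the Venus values. The log2 fold changes were -0.064 (95% confidence interval -0.33 to 0.20, limma adjusted p = 0.679) and -0.11 (95% confidence interval -0.41 to 0.19, limma adjusted p = 0.512), intervals that leave out a 2-fold change in either direction.

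Whether paralogs differed in response was tested on the differences between their brightest probes within each array, in one table with 10811 pairs of probes of the same gene and 4 pairs of paralogs. Of these 10815 pairs, 26.8% differed at the adjusted p and 10.5% also by more than 2-fold. Plod1 rose more than Plod3 by 1.09 (standard error 0.11, 95% confidence interval 0.79 to 1.38, limma adjusted p = 0.0109), past both limits, and more than Plod2 by 0.91 (standard error 0.13, 95% confidence interval 0.56 to 1.27, limma adjusted p = 0.0171). The call of Plod1 over Plod3 past both limits was lost with the methods' t-test. Plod2 and Plod3 differed by 0.17 (95% confidence interval -0.18 to 0.52, limma adjusted p = 0.459), which does not separate them. P4ha1 rose less than P4ha2, with a difference of -0.71 (standard error 0.11, 95% confidence interval -0.997 to -0.43, limma adjusted p = 0.0185), or 1.64-fold. Pairs with P4ha3 could not be formed.

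The same table compared the probes of each gene. Of the 9 pairs of probes within the genes, the Plod1 pair included, 0 were past both limits, and 1 passed the adjusted p. This was Plod2, whose probe for transcript variant 2 and whose probe for the Ensembl transcript differed by 0.55 (standard error 0.12, 95% confidence interval 0.23 to 0.87, limma adjusted p = 0.0447). Which Plod2 transcript forms the probes share was not analysed here. For P4ha1 the difference was 0.034 (95% confidence interval -0.36 to 0.43). For Plod1 no difference is given, since its dimmer probe has only a bound and entered the test only through the OASIS arrays.

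**Figure D3:**
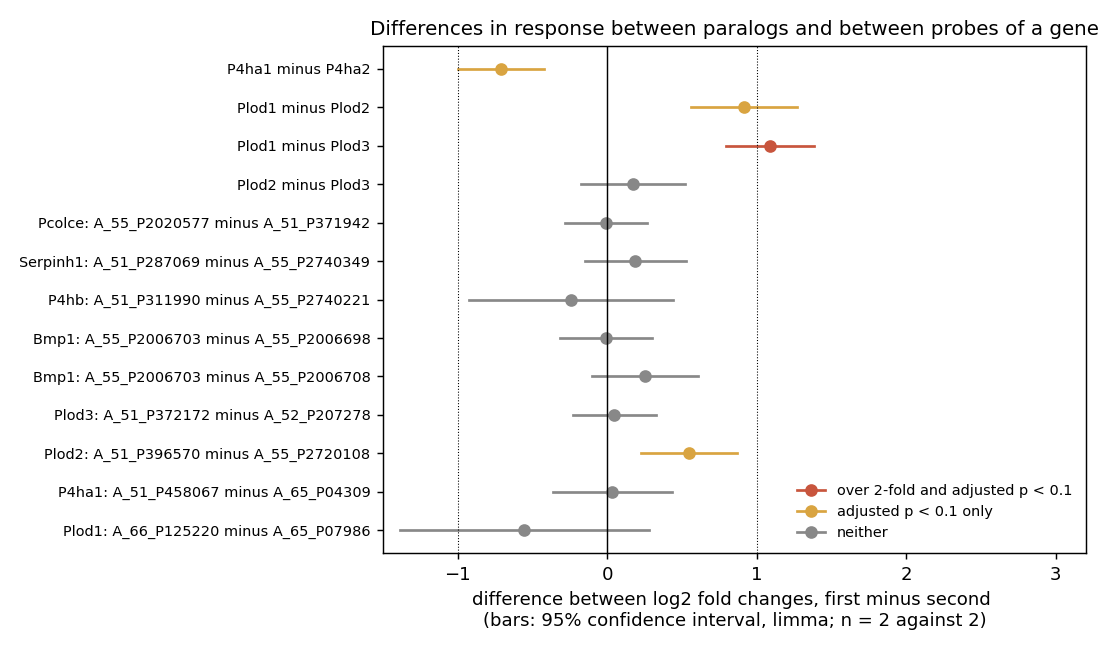
Difference between 2 log2 fold changes (first minus second) for the 4 pairs of paralogs and the 9 pairs of probes within a gene, with 95% confidence intervals from limma over 2 arrays per group. The differences of Plod1 from Plod2 and from Plod3, of P4ha1 from P4ha2 and between the Plod2 probes have intervals that leave out 0. The pair of Plod1 probes is not read, since its dimmer probe has only a bound.

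Serpinh1, on chromosome 7 (7qE2), rose less than 2-fold, and the arrays of each group were close to each other at its brighter probe. That probe, A_51_P287069 for transcript variant 1, read 4.47 and 4.46 with Venus and 5.20 and 5.21 with OASIS. Its dimmer probe, A_55_P2740349, read -4.55 and -4.43 with Venus and -3.84 and -4.03 with OASIS. The groups stood apart in both probes. The log2 fold changes were 0.74 (standard error 0.097, 95% confidence interval 0.49 to 0.998, limma adjusted p = 0.0127), or 1.67-fold, and 0.55 (standard error 0.12, 95% confidence interval 0.24 to 0.87, limma adjusted p = 0.0375), or 1.47-fold. With normexp background correction the dimmer probe gave 0.19 and no longer passed (limma adjusted p = 0.115).

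Bmp1, on chromosome 14 (14qD2), was read by 3 probes, and none passed the test. The brightest, A_55_P2006703 for transcript variant 1, read 2.64 and 2.69 with Venus and 2.81 and 2.80 with OASIS, a small difference of 0.15 (95% confidence interval -0.11 to 0.40, limma adjusted p = 0.330). The probe for the non-coding variant 2, A_55_P2006698, read 0.99 and 1.21 with Venus and 1.25 and 1.26 with OASIS, a log2 fold change of 0.15 (limma adjusted p = 0.392). The dimmest, A_55_P2006708, also for variant 1, read 0.10 and 0.23 with Venus and 0.19 and -0.076 with OASIS. Its groups overlapped, its log2 fold change was -0.11 (limma adjusted p = 0.604), and its sign turned, to 0.025, without OASIS replicate 2.

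Pcolce, on chromosome 5 (5qG2), was printed in 10 spots for each of its 2 probes. The brighter probe, A_55_P2020577, read 5.13 on both Venus arrays and 5.22 and 5.31 with OASIS. The other, A_51_P371942, read 4.83 and 4.85 with Venus and 4.97 and 4.99 with OASIS. Both OASIS arrays were higher in each probe, but the log2 fold changes were 0.13 (95% confidence interval -0.13 to 0.40, limma adjusted p = 0.381) and 0.14 (95% confidence interval -0.11 to 0.40, limma adjusted p = 0.335) and did not pass the test.

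Over the 18 tested probes, both OASIS arrays lay above both Venus arrays in 13 and below them in 2, and the groups overlapped in 3. The 13 include the dimmer Plod1 probe, which entered the test only through the OASIS arrays. Over all probes with a value on each array, 28.6% lay above and 39.4% below in this way. The SD within a group ran from 0.00257 to 0.55 for these 18 probes, with a median of 0.070, against a median of 0.099 for all probes tested. With 2 arrays per group, an exact permutation test of a single probe cannot give a two-sided p below 0.333, so the limma values depend on a variance borrowed from all probes.

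The 5 probes of other genes closest to the P4ha2 probe in their pattern over the 4 arrays, by Euclidean distance of log2 values centred on the mean of each probe, were those of Pik3cd (0.0207), Gk5 (0.0573), Tmem120b (0.0693), Fgfr3 (0.0788) and Khdrbs3 (0.0817). In log2 fold change these 5 ranged from 1.67 to 1.76.

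The neighbouring steps of collagen production were described with a list of 26 other hydroxylation, folding and trimming genes, of which 21 were tested and Colgalt2, Adamts3, Tll2, Mep1a and Mep1b were above background on no array. Of the 21, 13 rose and 2 fell at the adjusted p, 6 did not pass, and 7 were higher and 0 lower past both limits, with a median log2 fold change of 0.72. Over all genes tested the shares were 18.6% and 18.1% at the adjusted p and 6.21% and 1.85% past both limits. Some other probes read differently from the brightest. Mia2, counted as risen, had a probe at -0.97 (limma adjusted p = 0.0163). P3h2, counted as not passing, had one at -0.92 (limma adjusted p = 0.0111), and Sparc, also not passing, had one at 0.92 (limma adjusted p = 0.0167). The list held 4 prolyl isomerases of the FK506-binding family, all of which rose, and 3 of them were past both limits. Fkbp14, which read 1.53 and 1.44 with Venus and 4.13 and 3.88 with OASIS, rose by 2.52 (standard error 0.13, limma adjusted p = 0.00275), Fkbp7 by 1.95 (limma adjusted p = 0.00399) and Fkbp10, an ER chaperone of procollagen, by 1.53 (limma adjusted p = 0.00558), whereas Fkbp9, with 0.72 (limma adjusted p = 0.0141), stayed under 2-fold. P3h4, a partner of the prolyl 3-hydroxylase P3h3 without hydroxylase activity of its own, rose by 2.32 (limma adjusted p = 0.00439), and Colgalt1, which adds galactose to hydroxylysine, by 1.06 (limma adjusted p = 0.0111).

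Among the trimming genes of that list, Pcolce2, a relative of Pcolce, rose from -3.80 and -3.99 with Venus to -1.58 and -1.77 with OASIS, a difference of 2.22 (limma adjusted p = 0.0034). Adamts14, a protease that removes the N-terminal propeptide, rose by 1.12 (limma adjusted p = 0.00736), and Adamts2, which acts on the same propeptide, gave 0.17 (limma adjusted p = 0.318). Tll1, a relative of Bmp1, read between -5.51 and -4.90 with a log2 fold change of 0.059 (limma adjusted p = 0.868).

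Of 16 protein disulphide isomerases and ER oxidases related to P4hb, 15 were tested, 5 rose, 2 fell and 8 did not pass, with a median of 0.18, against 18.6% and 18.1% of all genes that rose and fell. Past both limits, where all genes gave 6.21% higher and 1.85% lower, Pdia5 was higher by 1.996 (limma adjusted p = 0.00425) and Ero1lb, an oxidase that recharges the isomerases, fell by 1.38 (limma adjusted p = 0.00513). The next largest change was Tmx3, a transmembrane isomerase, with -0.86 (limma adjusted p = 0.0147), and its other probe was lower past both limits, with -1.31 (limma adjusted p = 0.0264). Tmx1, counted as risen, had another probe at -0.75 (limma adjusted p = 0.0589). Tmx4, counted as not passing, had probes at 1.29 (limma adjusted p = 0.0513) and 0.38 (limma adjusted p = 0.0615).

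A chosen list of 9 fibrillar procollagen chains, substrates of these enzymes, was also described. Of these, 7 were tested, while Col3a1 was above background on no array and Col5a3 on at most 1. At the adjusted p, 5 rose, 0 fell and 2 did not pass, with a median of 1.10. Of all genes, 18.6% rose and 18.1% fell. Past both limits, 4 chains were higher and 0 lower, against 6.21% and 1.85% of all genes. Col1a1 rose from -3.26 and -2.87 with Venus to 3.01 and 3.03 with OASIS, a log2 fold change of 6.08 (limma adjusted p = 0.00141), and Col1a2 rose by 2.71 (limma adjusted p = 0.0019). Col5a1 rose by 1.10 (limma adjusted p = 0.0127). Col5a2 rose by 1.24 (limma adjusted p = 0.0741) by its brighter probe, while its other probe gave -0.38 (limma adjusted p = 0.146). The count of 4 chains past both limits was 2 without Venus replicate 1 and 3 without Venus replicate 2.

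**Figure D4:**
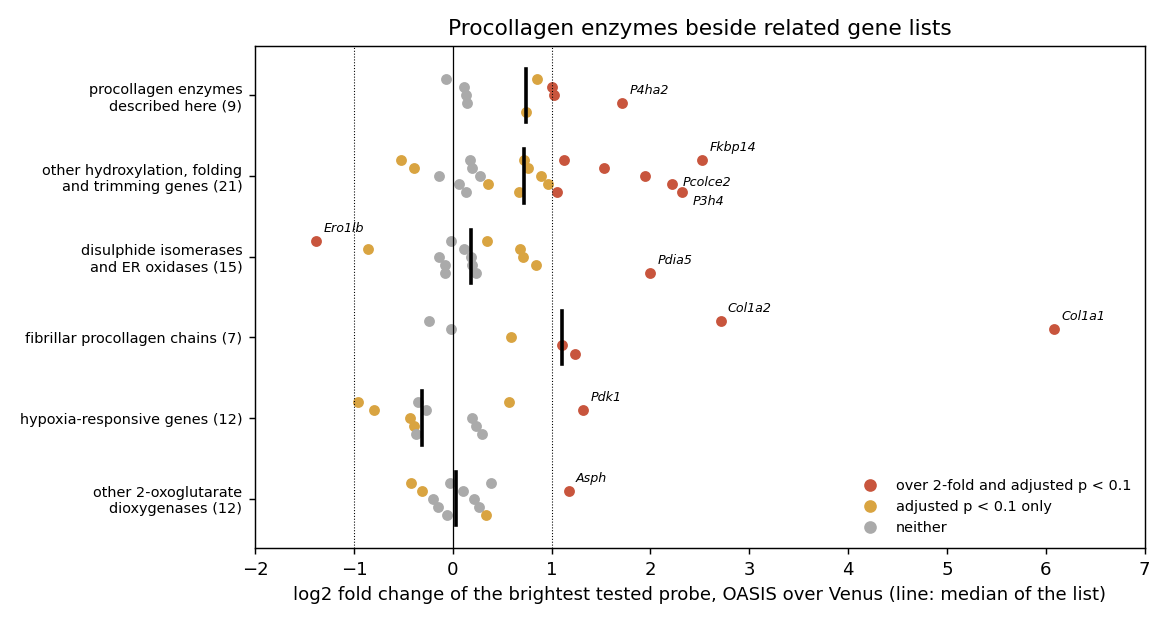
Log2 fold change of OASIS over Venus for the brightest tested probe of each gene in the 9 tested procollagen enzymes and in 5 related lists, with the number of tested genes in brackets and the median as a black line; dotted lines mark 2-fold. The medians are 0.74 for the procollagen enzymes, 0.72 for the other hydroxylation, folding and trimming genes and 1.10 for the fibrillar chains, and -0.31 for the hypoxia-responsive genes.

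P4ha1, P4ha2 and Plod2 are also known as genes that respond to hypoxia, and the hydroxylases belong to the 2-oxoglutarate dioxygenases, so lists of both were described. All 12 hypoxia-responsive genes were tested, 2 rose, 4 fell and 6 did not pass, with a median of -0.31. The share that rose was near the 18.6% of all genes, and 18.1% of all genes fell. Past both limits, 1 of these genes was higher and 0 were lower, against 6.21% and 1.85% of all genes. Pdk1 was the 1 gene higher past both limits, by 1.32 (limma adjusted p = 0.00554), though its 5 probes ran from -0.21 to 1.43, and Vegfa fell by 0.96 (limma adjusted p = 0.0135) and Ankrd37 by 0.80 (limma adjusted p = 0.0135). All 12 dioxygenases outside collagen were tested, 2 rose, 2 fell and 8 did not pass, with a median of 0.037, shares near the 18.6% and 18.1% of all genes. Past both limits, 1 dioxygenase was higher and 0 were lower, against 6.21% and 1.85% of all genes. Asph, which hydroxylates aspartate and asparagine, was higher by 1.17 (limma adjusted p = 0.00819), while its other probes gave -0.0046 and 0.63. The next largest values there were -0.43 for Kdm4a (limma adjusted p = 0.0585) and 0.39 for Ogfod1 (limma adjusted p = 0.166). The second probe of Kdm4a gave -1.04 (limma adjusted p = 0.00801), and another probe of Ogfod1 had the opposite sign, with -0.76 (limma adjusted p = 0.0186).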

How the data were processed

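Cy3-labelled RNA of 2 Venus and 2 OASIS samples was hybridised to SurePrint G3 Mouse GE v2 arrays, whose design uses mouse build mm9. The deposited scanner output gives, per spot, an intensity from which Agilent Feature Extraction 12.1.0.3 had removed background. The authors also deposited a table in which this intensity was multiplied by a factor per array (0.663 to 0.698), a detection score per spot, gene symbols and bands. Chromosome positions finer than a band and probe sequences were not used here.

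Control and outlier spots were left out, and log2 intensity minus the 75th percentile of the array was averaged over the spots of a probe. A probe was tested if, in 1 group or both, at least 0.5 of its spots on each array were well above background (31598 of 56605 probes). limma 3.58.1 (lmFit, eBayes) in R 4.3.3 with the R package data.table (version 1.17.8) compared the groups, and p-values were adjusted after Benjamini and Hochberg across every tested probe. The thresholds were those of the methods, whose test for q-values is not given in the sources used here. The methods' t-test is the Student's t-test that they name for comparing 2 groups, and whether it gave the q-values is unknown. The scripts were tested on simulated data. A bound, for probes dim on every array of a group, divides the brighter group's mean by a floor averaged over the dim arrays, the lowest signal well above background or the probe itself if brighter. Precision is limited by the number of arrays. The value of 1 podocyte marker is not reported here.

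The members and lists were chosen with earlier results of these data known. Named from each list were the genes past both limits and the 3 with the largest change, and the 5 probes nearest in pattern to the member probe with the largest change; P4ha2 was used for this. Tll1, Fkbp9, Adamts2 and the second probes given for genes of the lists were added after their values had been seen. Alternatives were quantile or median scaling, normexp (offset 50, on the median spot signal), the authors' scaled values, no filter or one on all 4 arrays, outlier spots kept, probe means per gene, an intensity trend, the methods' t-test, an adjusted p under 0.05, a replicate block and leaving out each array.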

Additional observations from a re-analysis of the deposited data

How the results depend on the processing

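P4ha2 was past both limits in 16 of 16 settings, with log2 fold changes from 1.63 to 1.80, and Plod1 by its brighter probe in 13 of 16. Over the tested probes and all alternatives, 249 values kept their direction and their side of the combined limits, 18 lost and 1 gained that call, and 1 changed sign, the dimmest Bmp1 probe, which ran from -0.24 to 0.025 when 1 array was left out and was above 0 without OASIS replicate 2. At the adjusted p alone, 127 calls were kept, 22 were lost and 1 was gained. The causes were not tested. The count of 5 probes higher past both limits was 1 with normexp, 3 with no filter on dim probes and 2 with the methods' t-test, under which 4 in place of 9 probes rose at the adjusted p: the brighter probes of Serpinh1, P4ha2 and Plod1, and a Pcolce probe (A_51_P371942) that did not pass with limma, while both P4ha1 and both P4hb probes lost the call. The 1 probe that fell at the adjusted p was 0 with the authors' scaled values, with no filter, with the methods' t-test and at an adjusted p under 0.05. The median of 0.74 over the genes was 0.71 with quantile normalization, 0.72 with scaling to the median, 0.78 with no filter and 0.65 with the mean of a gene's probes. Counts of genes past both limits in the related lists also moved. Of the hypoxia-responsive genes, 1 was lower with quantile normalization and 0 were higher with the mean of probes. Of the disulphide isomerases, 0 were lower with normexp and 2 with the mean of probes. Of the fibrillar chains, 3 in place of 4 were higher with normexp, the authors' scaled values, no filter or an adjusted p under 0.05. With the methods' t-test 2 of these chains were higher. Of the other hydroxylation, folding and trimming genes, 5 in place of 7 were higher with that test. Of the other dioxygenases, 0 were higher with that test and with the mean of probes. The pairs that differed past both limits numbered 0 with the methods' t-test. Leaving out 1 array at a time gave 3 to 6 probes higher past both limits, 7 to 9 that rose and 0 to 1 that fell at the adjusted p, medians of 0.74 to 0.84, and 1 to 2 pairs. In the lists it gave 2 to 4 fibrillar chains higher, 0 to 1 hypoxia-responsive genes lower and 1 to 2 disulphide isomerases higher. Each such fit assumes that the lone sample varies like the other group. With the replicate number as a block, 5 probes were higher past both limits and no other call named here changed; same-numbered arrays had deviations that correlated at 0.26 over 31598 probes, and with 2 pairs the samples share only a number.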
